A study of Mus musculus with 4 samples.

Results

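The genes described here encode plasma proteins and complement components that the liver secretes. They were chosen by name, with earlier results of these data known. The list holds 8 names: C6, C8a and Hc of the complement system, the haptoglobin gene Hp, the fetuin gene Ahsg, the albumin gene Alb, the transthyretin gene Ttr and the transferrin gene Tf. Of these, 7 were found on the array, with 13 of its 52385 autosomal probes. No probe carried the name Tf. RefSeq lists Tf as a synonym of the mouse symbol Trf, which the array does use, and the 2 Trf probes are given beside the 7 genes without being counted among them. Measured were 4 samples of genomic DNA from mouse liver cells, taken from formalin-fixed, paraffin-embedded (FFPE) sections. They form a single group labelled TAK1LPC-KO_RIP3-_-, which names a knockout of the kinase TAK1 in liver parenchymal cells. The second part of the label is read as RIP3-/-, the homozygous loss of the necroptosis kinase RIP3. Each sample, labelled with Cy5, shared an array with Cy3-labelled DNA pooled from 4 normal livers, whose genotype the labels leave unstated. Cre driver, strain and age are likewise unstated, as is whether the samples came from separate animals, so p-values cover the spread among these 4 samples alone, and that spread may be technical. DNA cannot be checked against cell type markers, and the tissue is taken from the labels.

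Hepatocytes make most of the protein of blood plasma. Albumin holds water in the vessels and carries fatty acids and drugs, transthyretin carries thyroid hormone and retinol-binding protein, transferrin carries iron, and haptoglobin binds free haemoglobin. Fetuin binds calcium phosphate and keeps it from precipitating. Hc encodes complement component C5, whose cleavage starts the membrane attack complex, and C6 and C8 then join it to form a pore in the target membrane. In comparative genomic hybridisation, a probe's ratio follows the copy number of the DNA it binds, and a gain or loss is seen as a shift shared by neighbouring probes.

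The probes on which the results turn are short DNA strands that the scanner files list by sequence and by position on mouse build mm9. They are shown because probes of the same gene gave ratios far apart (C6, Trf). Further reasons are that 1 probe alone stands for Ahsg and that both Alb probes were above the pool. Capitals mark every run of a single base that reaches 5 bases. Across the 15 probes GC content ran from 30.0% to 41.5%. The strand of the build that each sequence follows, and whether it lies in an exon or an intron, were not determined here.
C6 probe at chr15:4709893-4709952: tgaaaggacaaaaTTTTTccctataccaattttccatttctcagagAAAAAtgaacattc
C6 probe at chr15:4729871-4729930: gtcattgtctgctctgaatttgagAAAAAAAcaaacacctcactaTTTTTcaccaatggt
C6 probe at chr15:4731858-4731917: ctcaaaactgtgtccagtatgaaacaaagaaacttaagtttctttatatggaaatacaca
Alb probe at chr5:90890766-90890825: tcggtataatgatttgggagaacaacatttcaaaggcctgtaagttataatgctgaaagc
Alb probe at chr5:90901671-90901730: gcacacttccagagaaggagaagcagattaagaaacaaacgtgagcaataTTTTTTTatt
Ahsg probe at chr16:22892339-22892390: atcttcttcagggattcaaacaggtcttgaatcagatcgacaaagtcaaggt
Trf probe at chr9:103124643-103124702: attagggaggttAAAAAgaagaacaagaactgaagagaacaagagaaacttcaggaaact
Trf probe at chr9:103132248-103132307: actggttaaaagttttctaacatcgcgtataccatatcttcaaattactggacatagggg

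Values below are log2 ratios of processed Cy5 over processed Cy3 intensity, centred per array on the median of the autosomal probes, so a value above 0 lies above the pool. A gene's value is the mean of its probes. Differences were tested with limma over all 20445 named autosomal genes, and a gene was called at a Benjamini-Hochberg adjusted p under 0.05 and an absolute mean of at least 0.25. Replicates 1 and 2 shared slide 1, and replicates 3 and 4 shared slide 2. Signals well above background made up 84.3% to 89.9% of each array in the Cy5 channel and 94.4% to 97.7% in the Cy3 channel, and the number of arrays limits the precision. Map3k7, which encodes TAK1, was called above the pool, at 0.65 ± 0.13 (SD, n = 4; limma, adjusted p = 0.00192). Ripk3, which encodes RIP3, lay at -0.08 ± 0.06 and was not called (adjusted p = 0.370). The labels do not give the deleted exons, so these ratios check no label.

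Of the 7 genes, 4 were above the pool (C6, Alb, Hp and C8a), 0 were below it and 3 passed no threshold (Ttr, Hc and Ahsg). By the same rule 35.4% of all genes were called, 16.1% of all genes above the pool and 19.3% below it. The median of the 7 genes was 0.38, against -0.01 over all genes. Because the genes were chosen with earlier results of these data known, these counts and medians are descriptive only. All ratios share 1 dye orientation, so dye and sample cannot be told apart. Over single probes, 6 of the 13 were above the pool, 0 below, and 7 passed no threshold, whereas 36.9% of all autosomal probes were called, 18.2% above and 18.8% below.

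Among the complement genes C6 was above the pool on every array, but the size of its ratio rests in part on a probe whose pool signal was dim. Over all 3 probes it gave 1.34, 1.24, 1.82 and 1.40 on replicates 1 to 4, a mean of 1.45 ± 0.25 (SD, n = 4; limma, adjusted p = 0.000733). With only probes well above background it lay at 0.80 (limma, adjusted p = 0.000134) and Alb at 0.83, so that C6 had the highest mean of the 7 genes over all probes and Alb over these probes. The 3 probes did not share the shift. The first by position gave 2.67, 2.27, 3.56 and 2.48, with a mean of 2.75 ± 0.57. Its pool signals of 78, 104, 32 and 86 were not well above background on any array, and 1 of them was a surrogate value, so the ratio has only a bound. With the pool set at the lowest signal well above background, the first probe's sample signal was higher by at least 2.85-fold. Without dye swaps, dye bias can enter this bound.

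The other C6 probes were measured in both channels on all 4 arrays. The third gave 1.25, 1.35, 1.70 and 1.63, with a mean of 1.48 ± 0.22 (limma over all probes, adjusted p = 0.000643). Its sample signals were 569 to 736 and its pool signals 225 to 245. The second, just before it on the chromosome, gave 0.09, 0.09, 0.19 and 0.09, with a mean of 0.11 ± 0.05 (adjusted p = 0.284), and its signals lay close together, at 615 to 700 in the samples and 586 to 666 in the pool. All 4 arrays therefore placed the third probe above the pool and the second within 0.19 of it. The second probe was below the third by -1.16, -1.26, -1.52 and -1.55, a mean difference of -1.37 ± 0.19 (limma over probes well above background, adjusted p = 6.89e-06). This fit, which leaves the dim probe out, was added after the values were seen, and in it 41.4% of 25950 probes differed from the other probes of their gene, 20.8% above and 20.5% below. With normexp background correction C6 lay at 0.76, still called.

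C8a, which encodes the alpha chain of complement C8, gave 0.27, 0.39, 0.49 and 0.38, a mean of 0.38 ± 0.09 (n = 4; limma, adjusted p = 0.00651), or 1.30-fold. All 4 arrays lay above the pool. Its first probe by position, at chr4:104488485-104488544, gave 0.68, 0.48, 0.79 and 0.75, with a mean of 0.67 ± 0.13 (adjusted p = 0.00283). The second had a mean of 0.21 ± 0.15 and the third 0.26 ± 0.32, and neither passed the threshold (adjusted p = 0.115 and 0.151). On replicate 1 the sample signal of the third probe was near background, where it gave -0.20 against 0.36 to 0.52 on the other arrays. Without replicate 1 this probe passed the threshold, at 0.41 (adjusted p = 0.0328). The first probe differed from its partners by 0.44 ± 0.21 (limma, adjusted p = 0.0346), a call lost without replicate 1, 3 or 4 (adjusted p = 0.114, 0.0907 and 0.105). In that fit over all probes 28.8% differed from their partners. With only probes well above background, the first C8a probe differed from the second by 0.47 ± 0.19 (adjusted p = 0.00623).

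Hc gave 0.13, 0.38, 0.07 and 0.03, a mean of 0.15 ± 0.16 (limma, adjusted p = 0.170). Its 2 probes, at chr2:34868451-34868510 and chr2:34906147-34906206, had means of 0.17 ± 0.20 and 0.14 ± 0.12 and differed from each other by 0.03 ± 0.11 (adjusted p = 0.860). Replicate 2 was the highest array for both probes, at 0.44 and 0.32. Hc is the complement gene of the 3 whose probes lay closest together, and the difference between C6 and Hc in this respect was not tested.

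**Figure D1:**
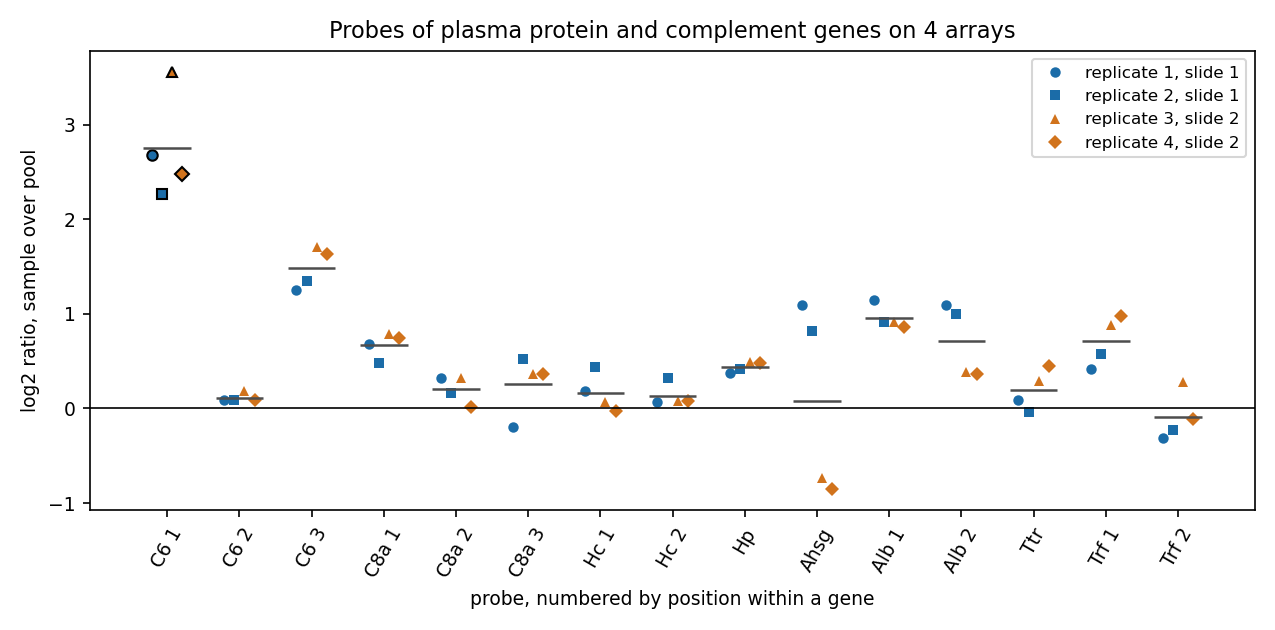
Log2 ratio of sample over pool (y axis) for the 15 probes of the 7 genes and Trf (x axis, numbered by position within a gene), with colours for slides, shapes for replicates and a bar at the mean. Black edges mark the C6 probe whose pool signal was not well above background. Its neighbour C6 2 lies near 0, and the Ahsg probe lies above 0 on replicates 1 and 2 and below 0 on replicates 3 and 4.

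Among the carrier proteins Alb had the highest ratio, at 1.12, 0.95, 0.65 and 0.61, a mean of 0.83 ± 0.25 (n = 4; limma, adjusted p = 0.00239), or 1.78-fold. All 4 arrays lay above the pool, with slide 1 at 1.04 and slide 2 at 0.63. Its first probe gave 1.14, 0.91, 0.91 and 0.86 (mean 0.96 ± 0.13, adjusted p = 0.00131). Its second probe gave 1.097 and 0.99 on slide 1 and 0.38 and 0.36 on slide 2 (mean 0.71 ± 0.39, adjusted p = 0.0118). The arrays of the slides do not overlap for the second probe, and how many of all probes do the same was not counted. The sample signals of the second probe were 30468, 28138, 27606 and 29742, and its pool signals were 14466 and 14550 on slide 1 against 21250 and 22995 on slide 2. The change between slides therefore lay in the pool signal, where it was 1.62-fold (0.69 on the log2 scale; limma, adjusted p = 0.130), and not past the threshold. None of the 15 probes was saturated.

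Hp gave 0.37, 0.41, 0.49 and 0.48 on its single probe at chr8:112099043-112099095, a mean of 0.44 ± 0.05 (limma, adjusted p = 0.00344), or 1.36-fold. Its arrays were the closest together of the 7 genes. The probe's sample signals ran from 3337 to 4125 and its pool signals from 2379 to 3190. With normexp Hp lay at 0.24, under the size limit, and centred on the median of its own chromosome it lay at 0.28. Ttr gave 0.09, -0.04, 0.29 and 0.45 on its single probe at chr18:20832363-20832422, with a mean of 0.20 ± 0.22 (adjusted p = 0.141). Both arrays of slide 2 were above both of slide 1, but the slide difference of 0.35 passed no threshold (limma, adjusted p = 0.450). How many of all genes show such an order was not counted, and the mean passed no threshold. Trf gave 0.05, 0.17, 0.58 and 0.44, a mean of 0.31 ± 0.24 (limma, adjusted p = 0.0492). This call was lost under 11 of 14 other settings, with adjusted p from 0.0246 to 0.155 over all 14, among them leaving out replicate 2, 3 or 4. Its probes went apart: the first gave 0.42, 0.57, 0.88 and 0.98 (mean 0.71 ± 0.26, adjusted p = 0.00505) and the second -0.31, -0.23, 0.28 and -0.11 (mean -0.09 ± 0.26, adjusted p = 0.557). The difference between them, 0.80 ± 0.21, passed the threshold (limma, adjusted p = 0.00515).

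Ahsg changed sign between the slides. Its single probe gave 1.09 and 0.82 on replicates 1 and 2 and -0.74 and -0.85 on replicates 3 and 4. Its mean of 0.08 ± 1.02 (limma, adjusted p = 0.869) therefore describes neither slide, and the SD is the largest of the 7 genes. Of all genes 7.21% had 1 sign on both arrays of slide 1 and the other sign on both arrays of slide 2. With all 4 arrays at least 0.5 from 0, Ahsg was 1 of 5 such genes, or 0.0245%. These counts were not among the planned tests and follow the pattern of Ahsg itself, so they are descriptive only. The difference between slides in the Ahsg ratio, -1.75, did not pass the threshold (limma, adjusted p = 0.223). By that test 0 genes of 20445 were called, or 0%, with 2207 at an unadjusted p under 0.05. With normexp the Ahsg difference was -1.69 and passed it (adjusted p = 0.0139), as 1 of 4 genes.

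The pool channel carried this change. The sample signals of the Ahsg probe were 9023, 8570, 8922 and 9622, whereas its pool signals were 4290 and 5009 on slide 1 and 14877 and 17275 on slide 2. In mean spot intensity before background subtraction and dye normalisation, the sample channel read 1120, 1134, 1301 and 1356 and the pool channel 879, 1643, 4492 and 3120, with local backgrounds of 46 to 53 in the pool. In processed signal the pool on slide 2 was above every sample and the pool on slide 1 below every sample. Before processing, the pool on replicate 2 also lay above every sample. On log2 processed signals, centred per array and channel, the pool was 3.67-fold higher on slide 2 (1.87; limma over all probes, adjusted p = 0.0247). The samples differed by 0.12 (adjusted p = 0.881). This comparison of channels was added after the values were seen. By it 11 of 52385 probes, or 0.021%, were called in the pool channel, 9 lower and 2 higher on slide 2. In the sample channel 0 were called, or 0%, with 3205 at an unadjusted p under 0.05 against 11113 in the pool channel. Without replicate 1 or 2 the Ahsg call in the pool channel was lost, at 1.80 and 1.95 (adjusted p = 0.0759 and 0.0545). Without replicate 3 or 4 it was kept.

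Per the labels both slides carried a pool of 4 normal livers, and whether it was one preparation is not given. Among the other probes of the 7 genes and Trf, the pool differed between slides by -0.70 to 0.69 on the log2 scale, and none passed the threshold (lowest limma adjusted p = 0.130). The sample channel of all 15 differed by -0.21 to 0.36 (lowest adjusted p = 0.807). Clu, a complement regulator also known as clusterin, was among the 11 probes. Its pool signal was lower on slide 2 (log2 difference -2.88, limma, adjusted p = 0.00113), the opposite direction to Ahsg, and its sample signal differed by -0.01 (adjusted p = 0.991). As a gene of 2 probes Clu gave -1.63, -1.82, 0.48 and 0.37, so that its gene mean changed sign with the slide. The ratio of the probe with the pool difference did not. That probe gave 0.14 and -0.13 on slide 2 and lay below 0 on both arrays of the other slide. The sign change of the gene mean therefore did not rest on that probe alone.

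**Figure D2:**
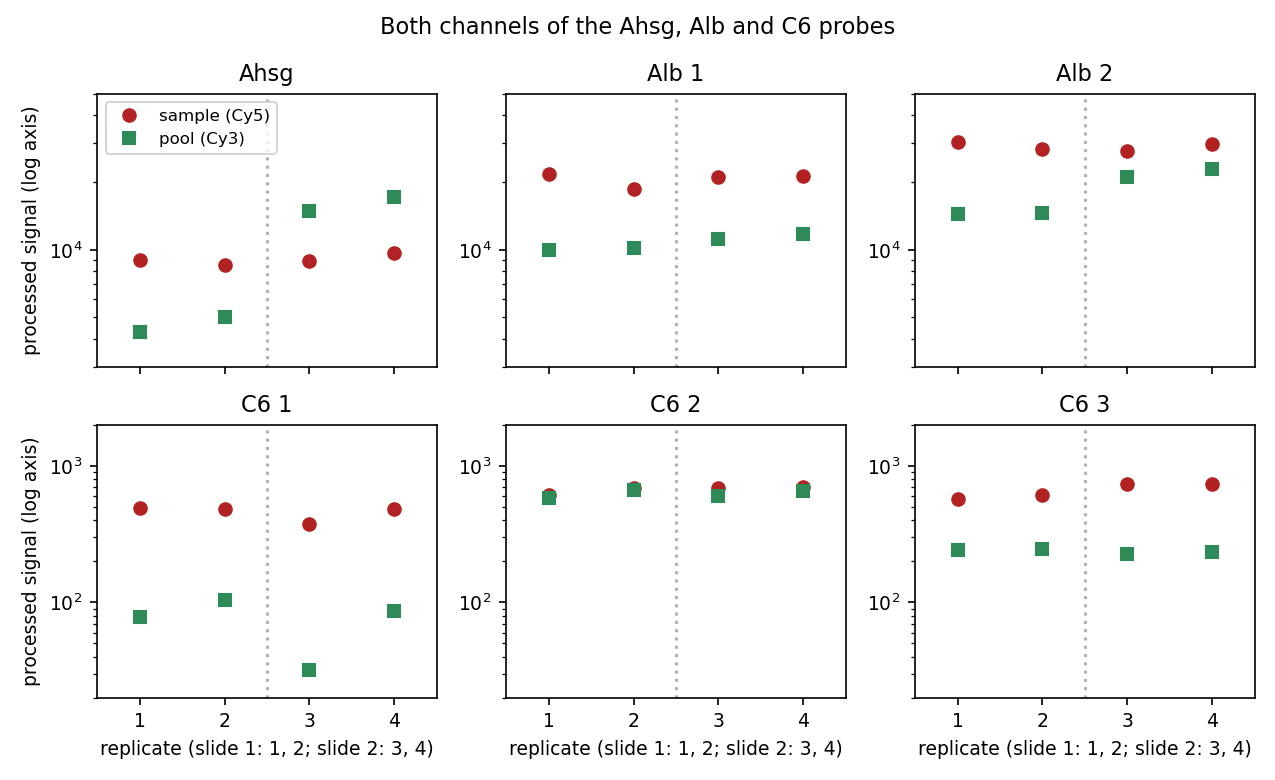
Processed signal (y axis, log scale) of the Cy5-labelled samples (circles) and the Cy3-labelled pool (squares) on replicates 1 to 4 (x axis) for the Ahsg, Alb and C6 probes, with a dotted line between slides. The Ahsg pool signal rises from 4290 and 5009 on slide 1 to 14877 and 17275 on slide 2 while the sample signal stays between 8570 and 9622. C6 2 has near-equal channels, and C6 1 and C6 3 do not.

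The probes of other names within 100 kb served as a local control, 52 in all for the 7 genes. For each gene their mean was subtracted on each array, and the difference was tested with limma over 20037 genes. Of the 7 genes, 3 stood above their neighbours (C6, Alb and Hp) and 0 below, whereas 32.7% of all genes were called by this rule, 17% of all genes above and 15.7% below. The median difference of the 7 genes was 0.21, against 0.01 over all genes. C6 stood above its 2 neighbouring probes by 0.84, 1.196, 1.68 and 1.01, a mean of 1.18 ± 0.36 (adjusted p = 0.00202). One of these is ENSMUST00000162350, 23000 bp away, at 0.48 ± 0.31, which was not well above background everywhere, and the other is unnamed, at 0.05. That mean includes the dim probe, and with only probes well above background the C6 difference was 0.75 (adjusted p = 0.000524). With normexp it was 0.56.

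Alb stood above its 7 neighbouring probes by 0.85, 1.19, 0.99 and 0.75, a mean of 0.95 ± 0.19 (limma, adjusted p = 0.00149). These neighbours ranged from -1.62 to 0.72 with a median of 0.20, and the lowest was an unnamed probe 15424 bp from Alb, on the side of Afp. With only probes well above background the Alb difference was 0.78 (limma, adjusted p = 0.000316). Alb lies beside Afp and Afm, albumin relatives that arose from the same ancestral gene. Afm, which encodes afamin, was also above the pool, at 0.67 ± 0.13 (adjusted p = 0.00177), with 0.72 and 0.62 on its 2 probes. Afp, which encodes alpha-fetoprotein and lies between them, gave 0.32, -0.62, -1.21 and -0.47, a mean of -0.49 ± 0.63 (adjusted p = 0.119). Its first probe had a mean of 0.14 ± 0.53 and its second of -1.12 ± 0.85 (limma over all probes, adjusted p = 0.597 and 0.0226), and the sample signal of the second was well above background on only 1 array. Afp lay below its own 6 neighbouring probes, at -0.83 ± 0.56 (limma, adjusted p = 0.0175). Those neighbours include the Alb and Afm probes, so this is not a result separate from that of Alb. ENSMUST00000068250 on the other side of Alb gave 0.26 ± 0.18 (adjusted p = 0.0497). Gc, the vitamin D-binding relative farther off on chromosome 5, gave -0.04 ± 0.08 (adjusted p = 0.617). High values on Alb and Afm were thus separated by lower ones.

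Hp stood above its 11 neighbouring probes by 0.35, 0.27, 0.40 and 0.29, a mean of 0.33 ± 0.06 (limma, adjusted p = 0.0189). The call was lost under 7 of 16 other settings, among them leaving out replicate 1, 2 or 3 (adjusted p = 0.0618, 0.0518 and 0.0650) and normexp (0.14, adjusted p = 0.0745). Txnl4b, Dhx38 and Dhodh, the nearest genes, lay at -0.05 ± 0.20, 0.50 ± 0.25 and 0.09 ± 0.07, of which Dhx38, an RNA helicase of splicing, passed the threshold (adjusted p = 0.0113). The 2 probes of Dhx38 lay apart, at 0.10 ± 0.22 and 0.89 ± 0.31 (limma over all probes, adjusted p = 0.463 and 0.00345). Only the higher of them was called. C8a exceeded its 6 neighbouring probes by 0.19 ± 0.18 (adjusted p = 0.163), which passed no threshold. With only probes well above background the difference was 0.25 and passed (adjusted p = 0.0261). The neighbours of C8a ranged from 0.03 to 0.29 in their means. They include C8b, the beta chain of the same complement protein, at 0.15 ± 0.12 (limma, adjusted p = 0.147). They also include probes of Dab1, at 0.13 and 0.29, whereas the mean of all 8 Dab1 probes was 0.21 ± 0.10.

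The remaining genes passed no threshold against their neighbours. Hc differed from 9 neighbouring probes by -0.0064 ± 0.17 (limma, adjusted p = 0.965), and Ttr from 6 by 0.21 ± 0.29 (adjusted p = 0.209). Trf differed from 10 by 0.30 ± 0.31 (adjusted p = 0.106). With neighbours within 500 kb Ttr passed at 0.28 (adjusted p = 0.0425) and Trf at 0.37 (adjusted p = 0.0322). The nearest named genes were AI182371, Traf1 and Cep110 for Hc, at 0.13, 0.34 and 0.17, and ENSMUST00000130296, B4galt6 and Dsg2 for Ttr, at 0.10, -0.15 and 0.12. For Trf they were 1300017J02Rik, Srprb and Rab6b, at 0.04, -0.25 and 0.07. Of these genes only Srprb passed the threshold (adjusted p = 0.0301). Single neighbouring probes lay further apart than these gene means. Of the 9 for Hc, 3 were called above the pool and 1 below. Of the 6 for Ttr, 1 was called above and 1 below, and of the 10 for Trf, 1 above and 3 below. The probes of 1300017J02Rik were called in opposite directions, at 0.68 and -0.61, the lower of them not well above background everywhere.

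Ahsg kept its change of sign against its 11 neighbouring probes, with differences of 0.62, 0.40, -1.10 and -1.17 (mean -0.31 ± 0.95, limma, adjusted p = 0.469). Its nearest genes, AK149453, Dnajb11 and Fetub, lay at 0.08 ± 0.19, 0.28 ± 0.25 and 0.20 ± 0.20, and none of these passed the threshold. Fetub encodes the second fetuin. Hrg, which encodes histidine-rich glycoprotein and belongs to the same cystatin family cluster, lay 62178 bp away at 1.78, 1.75, 1.41 and 1.48, a mean of 1.61 ± 0.19 (adjusted p = 0.000382). One of its 2 probes had a pool signal not well above background on any array and was at least 3.34-fold above it, and the other gave 1.06 ± 0.44. Further along, Kng1 and Kng2, which encode kininogens, gave 0.17 ± 0.08 and -0.07 ± 0.11 (adjusted p = 0.0791 and 0.438). None of Fetub, Hrg, Kng1 and Kng2 had 1 sign on both arrays of slide 1 and the other sign on both arrays of slide 2. An unnamed probe 88534 bp from Ahsg did, with smaller values of 0.18, 0.10, -0.17 and -0.15. Hrg and Kng1 lay above 0 on every array, so for them the sign rule cannot show a slide difference in size. The measured Hrg probe gave 1.53 and 1.33 on slide 1 and 0.64 and 0.72 on slide 2. Its pool signal was higher on slide 2 by 0.56 (log2; limma, adjusted p = 0.134), short of the threshold. Its sample signal differed by -0.19 (adjusted p = 0.832).

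**Figure D3:**
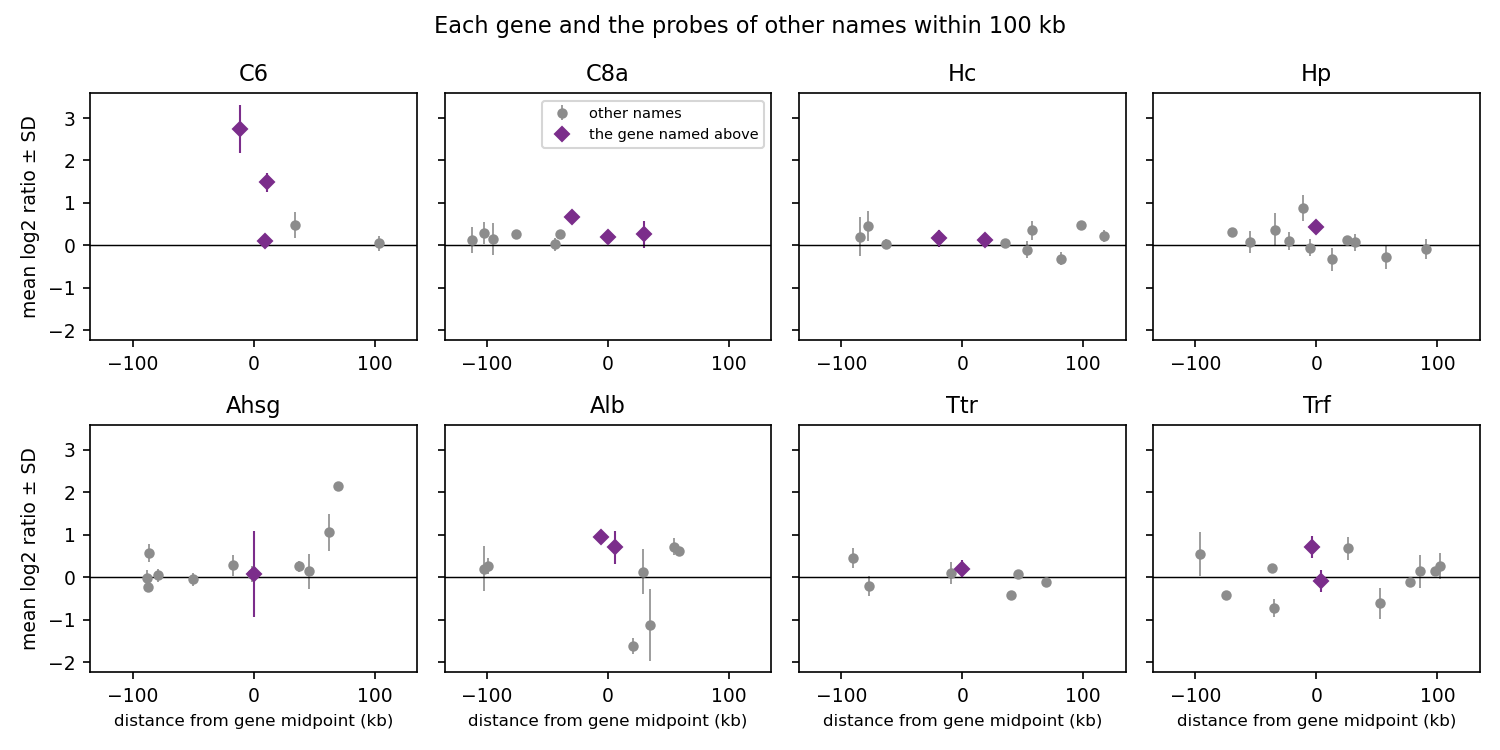
Mean log2 ratio with its SD over 4 arrays (y axis) for the probes of each gene (diamonds) and for probes of other names within 100 kb (circles) by distance from the midpoint of the gene's probes (x axis, kb). C6 has probes at 2.75, 0.11 and 1.48, and Alb at 0.96 and 0.71 lies beside probes down to -1.62.

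Other complement genes were taken from a list of 47 names, of which 29 were on the array. Of these 8 were above the pool, 4 below and 17 not past the threshold, beside 16.1% above and 19.3% below among all genes, and the list median was 0.14. C9, which completes the membrane attack pore and lies on chromosome 15 like C6, was highest, at 1.47 ± 0.27 (limma, adjusted p = 0.000803). Its 2 probes split as those of C6 did, at 2.86 ± 0.43 and 0.08 ± 0.11, although both were well above background in both channels on all 4 arrays. On the higher C9 probe the 4 arrays gave 3.28, 3.13, 2.33 and 2.69. Its pool signal was higher on slide 2 by 0.59 (log2; limma, adjusted p = 0.136), short of the threshold. Its sample signal differed by -0.11 (adjusted p = 0.889). No probe of another name lay within 100 kb of C9, so it has no local control. Mbl2 and Mbl1, the mannose-binding lectins that start the lectin pathway, followed at 1.07 ± 0.14 and 0.48 ± 0.07 (adjusted p = 0.000713 and 0.00300). Cr1l, a membrane regulator of complement, lay at 0.47 ± 0.21 and Cd59b, which blocks the attack complex, at 0.43 ± 0.25. C8g, the gamma chain of C8, went the other way from C8a, at -0.46 ± 0.11 (adjusted p = 0.00417). It lies on chromosome 2, and its 20 neighbouring probes were also low, so that it differed from them by only -0.11 ± 0.10 (adjusted p = 0.317). The difference between C8a and C8g was not tested. Mbl2 stood above its 2 neighbouring probes by 1.07 ± 0.22 (limma, adjusted p = 0.00130), whereas Mbl1 differed from its 9 by -0.04 ± 0.07 (adjusted p = 0.703), which passed no threshold. Mbl1, Mbl2, Cr1l, Cd59b and C8g rest on 1 probe each.

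Of 50 names of other plasma proteins, 41 were on the array, among them Trf. Of these 13 were above the pool, 5 below and 23 not past the threshold, with a median of 0.10. Among all genes 16.1% were above and 19.3% below. Among the highest were Crp, which encodes C-reactive protein, at 1.12 ± 0.06 (limma, adjusted p = 0.000396), and Hrg (above), whose mean of 1.61 includes the probe with only a bound and whose measured probe gave 1.06. Pzp, an alpha-2-macroglobulin relative, lay at 0.73 ± 0.15, and Rbp4, the carrier of retinol that travels with transthyretin, at 0.69 ± 0.10. The lowest was Igfbp1, which binds insulin-like growth factors, at -1.28, -1.43, -2.09 and -1.93, a mean of -1.68 ± 0.39 (adjusted p = 0.00105). Its pool signal was higher on slide 2 by 0.64 (log2; adjusted p = 0.130), short of the threshold. The 2 probes of Pzp lay apart, at 0.32 and 1.13, and Crp, Rbp4 and Igfbp1 have 1 probe each.

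Further lists hold genes that hepatocytes are not known for. Of 28 measured genes of Kupffer, endothelial, stellate and bile duct cells, 2 were above the pool and 5 below, with a median of -0.02. Of 23 neuronal genes 4 were above and 9 below, with a median of -0.18. Over all genes 16.1% were above and 19.3% below, with a median of -0.01. The difference between lists was not tested, and genes of a list are not replicates. The lists too were chosen with earlier results of these data known, so their counts and medians are descriptive only. Against their neighbours, 8 complement genes stood above and 1 below of 28 with neighbours, and 12 plasma protein genes above and 7 below of 41, beside the 17% and 15.7% given above for all genes. Without replicate 1 or 3 the complement genes above were 5. The plasma protein genes above were 6 without replicate 4, and those below were 4 without replicate 1, 2 without replicate 2 and 4 without replicate 4. Over all genes there were 6562 calls with all 4 replicates and 3923 to 4594 without 1 replicate.

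**Figure D4:**
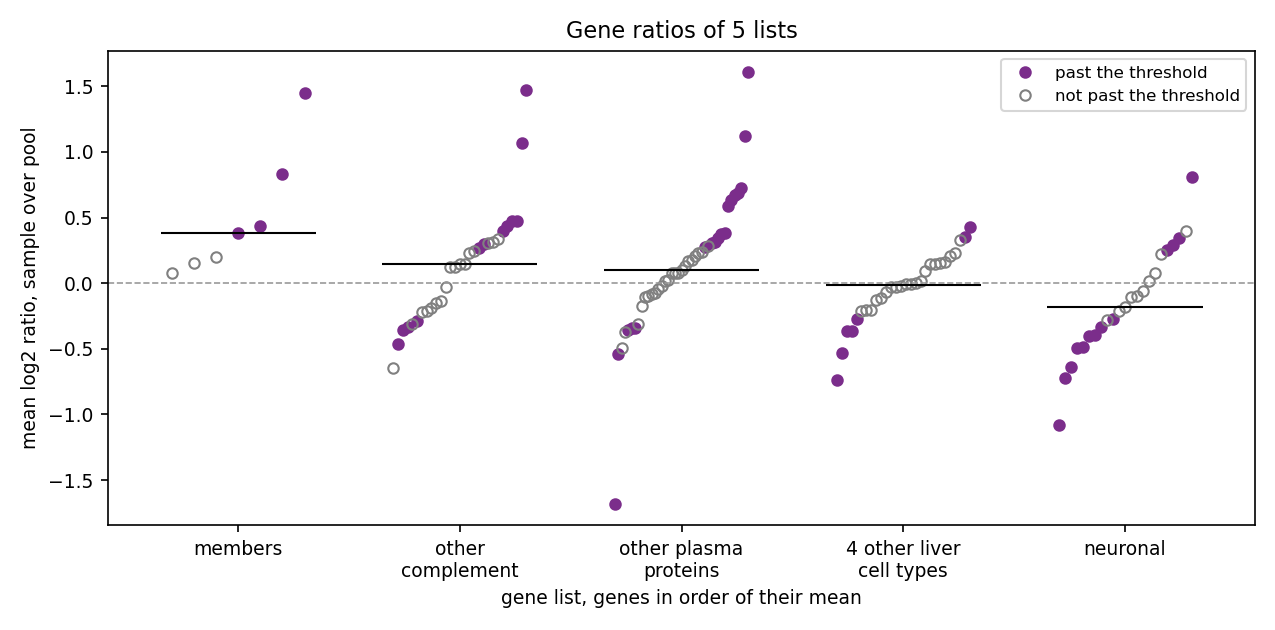
Mean log2 ratio over 4 arrays (y axis) of each gene of the 7 genes and of 4 other lists (x axis, genes in order of their mean within a list), with filled points for genes past the threshold and a line at the list median. Medians are 0.38 for the 7 genes, 0.14 for other complement, 0.10 for other plasma proteins, -0.02 for genes of other liver cell types and -0.18 for neuronal genes, and each list holds genes on both sides of 0 except the 7 genes.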

How the data were processed

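Genomic DNA of 4 samples was measured on 2-colour Agilent arrays against pooled DNA of normal livers. Per the file headers, the deposited intensity values come from Feature Extraction 10.10.1.1, were background-subtracted, detrended and linearly dye-normalised, with surrogates for dim spots, and probe positions are on mm9. The deposited log10 ratio was used only as a check and matched, on probes with 1 spot and no surrogates, to within 1.4e-06 on the log2 scale. The deposited log2 table, of unstated centring and normalisation, correlated with the same array at 0.909 to 0.919 and with another at up to 0.668, had slopes of 0.985 to 1.08 and column medians of -0.014, 0.051, 0.074 and 0.027, and served as an alternative.

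Control spots and outlier spots were left out, repeated spots averaged and arrays centred, leaving 54669 probes on all arrays. No dyes were swapped. Tests used limma 3.58.1 in R 4.3.3 against 0, with slide tested as a batch. Alternatives were normexp background correction, a filter on dim probes, the deposited table, other centrings, a GC correction, the median over probes, slide as a block or averaged, other neighbours, a larger size limit and leaving out each replicate. Steps were tested on simulated data. The genes and lists were chosen with earlier results of these data known. Named are all genes of the list, at most 3 nearest neighbours of each, the 6 largest calls of both pathway lists and genes of the same clusters, among them C7, a name not found on the array. Clu was named after its values were seen. Of the array's names 14832 are RefSeq symbols and 1579 synonyms (GRCm38, names only). Matching probes to proteins was not done.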

Additional observations from a re-analysis of the deposited data

Results flagged for a closer look

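In 2 of the 15 probes 1 array stood apart from the other 3 by more than chance gives in about 1 of 20 groups of 4. The second C6 probe gave 0.185 on replicate 3, against 0.09 on each of the other arrays. The second Hc probe gave 0.318 on replicate 2, against 0.07 to 0.08 on the others. No gene mean stood apart in this way.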

How the results depend on the processing

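No paired analysis was possible because all samples form 1 group. C6 and Alb kept their calls against the pool (14 settings) and against neighbours (16 settings). With a size limit of 0.5, 2 of the 7 genes were called above the pool in place of 4, and over all genes 2383 in place of 7236. Other complement genes then had 2 above and 0 below, and other plasma proteins 7 and 2. Plasma proteins below the pool were 3 with normexp and 3 after the GC correction, which was chosen after seeing the data. Complement genes below were 2 after that correction and 2 with slide means as 2 samples. Leaving out 1 replicate gave 3 to 5 plasma proteins below and 4 complement genes below. Against neighbours 2656 genes were called at 0.5 in place of 6562, and 3923 to 4594 without 1 replicate. With normexp 9 of the probes differed from their partners in place of 5, and 4 genes differed between slides in place of 0. The cause of these changes was not tested.

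Values that took the other sign were all of uncalled results. Ahsg against the pool, gene and probe alike, was -0.18 with normexp, -0.115 in the deposited table and -0.26 to 0.39 without 1 replicate (-0.26 without replicate 1, -0.17 without replicate 2). Against neighbours within 500 kb it was 0.058. Hc against its neighbours was 0.0445 among probes well above background, 0.0445 with only such neighbours, 0.051 in the deposited table, 0.19 within 500 kb and -0.083 to 0.0433 without 1 replicate, above 0 without replicate 3 (0.029) or 4. Against its partners the third C8a probe was 0.0337 with normexp. The third C6 probe was -0.0439 to 0.129 without 1 replicate, below 0 without replicate 4. The first Hc probe was -6.9e-05 to 0.0741 and the second -0.0741 to 6.9e-05, their signs turning without replicate 2. Neighbours left out or added, and fewer samples, are part of those settings, and the cause was not otherwise tested. Slide as a random block ended the call of Trf (adjusted p = 0.0523) and no other call among these genes. Dim signals limit the first C6 probe, and 1 probe each limits Hp, Ahsg and Ttr.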
